A study of Homo sapiens with 12 samples.

Results

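Respiratory complex I was followed through the transcripts of the nuclear genes that carry the symbol NDUF in human embryonic stem cells (hESCs) with and without UBQLN1. All genes of the count table whose symbol starts with NDUF were taken, which gave 52 of 28278 genes. Of these, 7 encode core subunits, 30 encode accessory subunits and 8 are NDUFAF assembly factors. NDUFA4, whose protein is a subunit of complex IV, and its paralog NDUFA4L2 were kept apart, as were 5 antisense, divergent, readthrough or pseudogene entries. The cells were of the WA26 line, and UBQLN1 encodes ubiquilin 1, a shuttle protein that brings ubiquitinated proteins to the proteasome. The 4 groups were wild-type (WT) cells at normal O2, UBQLN1 knockout (KO) cells at normal O2, the knockout at 5% O2 and the knockout given N-acetyl-L-cysteine (NAC), an antioxidant, with 2 libraries in each group. The KO was made with CRISPR-Cas9 from picked clones, and which clone each library came from was not given in the sources used here. The labels do not say that the 2 libraries of a group came from separate cultures. The study calls the replicates of its low-oxygen comparison biological without saying what separated them, and each p-value measures only the spread between these samples. Treated WT cells were not analysed here, and the comparisons below share libraries.

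Complex I, or NADH:ubiquinone oxidoreductase, is the entry point of the mitochondrial respiratory chain: it passes electrons from NADH to ubiquinone and pumps protons across the inner membrane. The nuclear core subunits carry the flavin and the iron-sulfur clusters of the peripheral arm, the membrane core is encoded by mitochondrial DNA, and the accessory subunits surround and stabilise both arms. Assembly factors bind intermediates, modify single subunits or deliver cofactors, and most of them leave before the complex is finished. Pluripotent stem cells rely largely on glycolysis but keep a respiratory chain. The mitochondrially encoded subunits were not analysed here.

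The targeted gene was examined first. UBQLN1 had 7382 and 7591 counts in the WT libraries, 1559 and 1789 in the KO libraries, 2116 and 1530 at 5% O2, and 2392 and 1476 with NAC. Each of the 6 KO libraries lay below both WT libraries, and the fold change of KO against WT at normal O2 was -2.29 on the log2 scale (adjusted p = 2.5e-06 by edgeR's quasi-likelihood test, Benjamini-Hochberg adjusted). Total counts per library ran from 31236968 to 41639350. The 10 markers of pluripotent stem cells fixed for the check, among them POU5F1, NANOG and LIN28A, each had at least 10 counts in all 8 libraries. Their summed level lay between 6324 and 7643 CPM (counts scaled to the library size times the TMM factor of the library), with DNMT3B most abundant in 7 libraries and LIN28A in the first NAC library. With NAC these markers moved apart. Against KO at normal O2, 3 of the 10 were called higher (DPPA4, ZFP42 and TDGF1) and 4 lower (DNMT3B, L1TD1, SALL4 and NANOG) at an adjusted p under 0.05 by the same edgeR test, beside 23.8% and 20.8% of all tested genes. DNMT3B, a DNA methyltransferase, had 2553 and 2455 CPM in KO cells and 1137 and 1418 CPM with NAC. Without the first NAC library 3 were called higher and 6 lower, and TDGF1 had -0.24 on the log2 scale once a trend on the length and GC content of transcripts was removed. The part of these shifts in the results with NAC was not tested. UBQLN1 itself had 42.25 and 43.45 CPM in KO cells at normal O2. It had 51.9 and 47.7 CPM at 5% O2 and 62.4 and 49.3 CPM with NAC. With NAC against KO at normal O2 it was called higher, at 0.38 on the log2 scale (adjusted p = 0.0196 by the same edgeR test), beside 23.8% of all tested genes. Its value was 0.21, not called, with the trend removed.

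One library stood apart by markers of another cell type. The summed level of 9 fibroblast or mesenchymal markers was 472 CPM in the first NAC library, where all 9 had at least 10 counts, and between 150 and 221 CPM in the other 7. COL1A2 was the most abundant of them in every library, at 245 CPM in the first NAC library and 113 CPM in the second. The defining markers LUM and DCN were at 0 in the other 7 libraries. DCN had 1809 counts in the first NAC library, COL3A1 1114 and LUM 148, and each had 0 in the second. PDGFRB had 1062 and 60 counts in the NAC libraries. With NAC against KO at normal O2, 2 of 5 tested markers were called higher and 0 lower, beside 23.8% and 20.8% of all genes. These were PDGFRA (1.54, adjusted p = 0.0231) and PDGFRB (3.53, adjusted p = 0.00419), by edgeR's quasi-likelihood test, Benjamini-Hochberg adjusted. The part of these transcripts in the results with NAC was not tested. For KO with NAC against KO at normal O2, edgeR's counts at an adjusted p under 0.05 and medians are given also without the first NAC library. This was done for the members, their roles and the other gene groups. It was not done for the fibroblast, mesenchymal, mesendoderm and endoderm markers, nor for counts at an unadjusted p or by a fold rule. Summed levels were lower for 5 neuroectoderm markers (2.92 to 11.2 CPM, SOX1 most abundant), for 7 mesendoderm and endoderm markers (2.04 to 8.32 CPM, MIXL1 most abundant, level with EOMES in the first NAC library and below it in the second) and for 6 trophoblast or amnion markers (10.5 to 13.3 CPM, KRT7 most abundant). With NAC against KO at normal O2, all 5 tested mesendoderm and endoderm markers had negative log2 fold changes. Of these 1, MIXL1, was called lower, at -1.59 (adjusted p = 0.0018 by edgeR's quasi-likelihood test, Benjamini-Hochberg adjusted), beside 20.8% of all genes. The part of this shift in the results with NAC was not tested.

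Transcript levels of the members spanned a wide range, shown in the plot of levels by library. Divided by the length of the reference transcript, NDUFS5, an accessory subunit on the intermembrane-space side, had the highest mean of all members over the 8 libraries, at 501 CPM per kilobase. Among the core subunits the mean ran from 9.87 CPM per kilobase for NDUFS1, the largest core subunit, to 156 CPM per kilobase for NDUFS8, which carries iron-sulfur clusters near the quinone site. NDUFS1 was set against a reference transcript of 11660 bases, so its level per kilobase would be higher if the cells made a shorter one. Assembly factors ran from 3.17 CPM per kilobase for NDUFAF5, which hydroxylates an arginine of NDUFS7, to 48.6 CPM per kilobase for NDUFAF8, its partner protein. NDUFA4 had 132 CPM per kilobase and NDUFA4L2 0.307 CPM per kilobase.

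**Figure D1:**
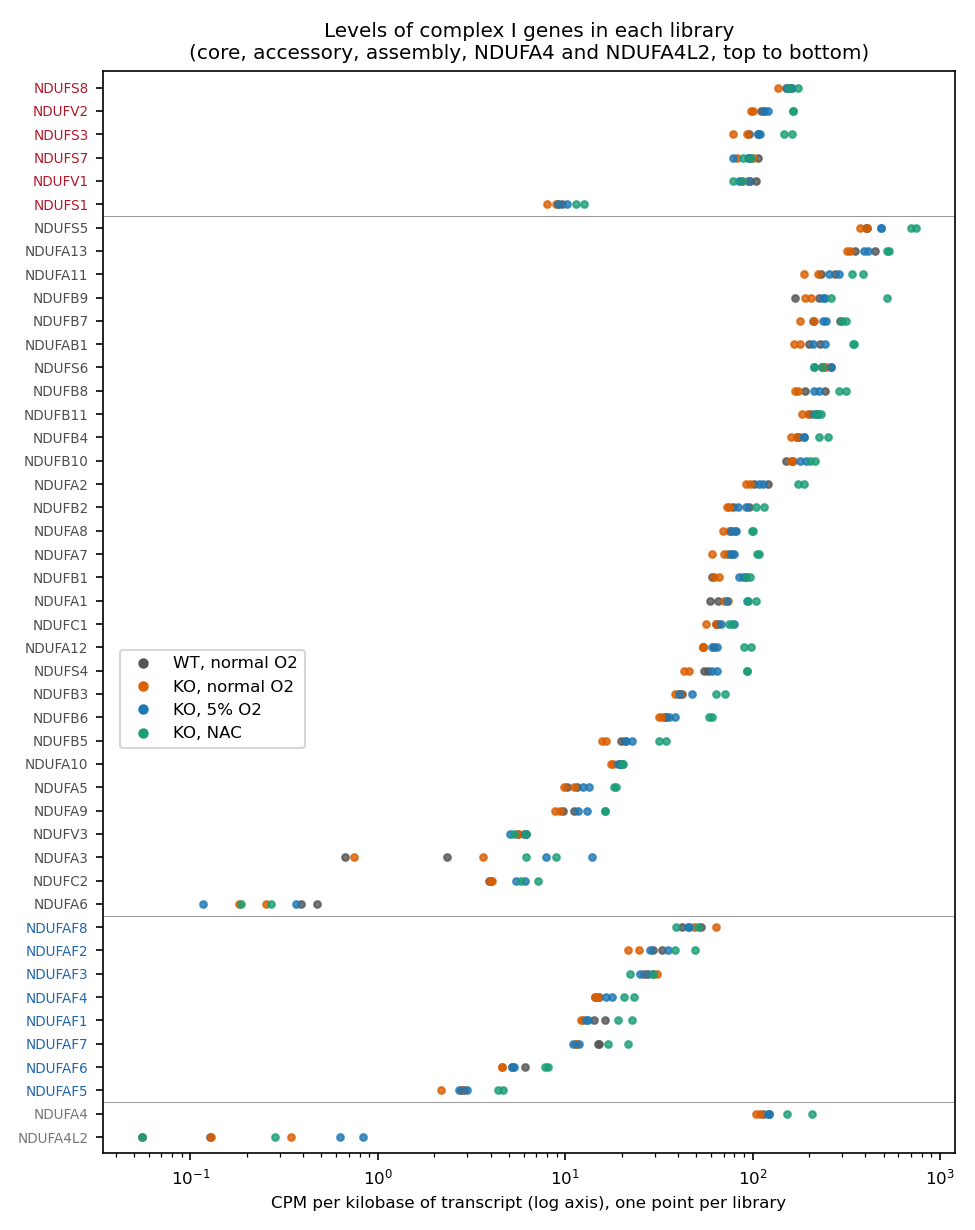
Each point is the level of 1 gene in 1 library, in CPM per kilobase of reference transcript on a log axis, for core, 30 accessory and 8 assembly genes and for NDUFA4 and NDUFA4L2, coloured by group. The green points of the NAC libraries lie to the right of the orange KO points for most genes, as for NDUFS5 and NDUFB5, and not for NDUFV1, NDUFS7 or NDUFAF8.

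A filter on low counts left 49 of the 52 genes and 15916 genes in all. All 45 core, accessory and assembly genes passed it. The readthrough entry NDUFC2-KCTD14 had no counts in any library, and the pseudogene NDUFAF4P1 and the divergent transcript NDUFA6-DT were too low. NDUFA4L2 reached the filter's level in 1 KO library and both libraries at 5% O2. The counts of some members were uncertain, because reads from near-identical sequence may be lost or shared. Of the 31-base words of the NDUFA3 transcript 90.7% also stood on alternate-locus scaffolds of hg38, and of those of NDUFA6 94.6%. NDUFA6 had 4 to 17 counts per library, although its protein is part of every complex. For NDUFV3 16.7% of the words stood on such scaffolds. Words that also stood elsewhere on the primary chromosomes made up 45.8% for NDUFAF2, 37.2% for NDUFV2, 30% for NDUFV3 and 29.2% for NDUFB3. NDUFC2 overlaps the readthrough gene, and NDUFV2 and NDUFB2 have antisense partners that counting without strand cannot separate.

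Promoter sequences are given for 4 core subunits and for NDUFA4L2, which is known to be induced by low oxygen. In KO with NAC against KO at normal O2, a pair of the 4 rose (NDUFS3 and NDUFV2) and the values of the other pair did not pass the test (NDUFV1 and NDUFS7). They were chosen after the values and the motif matches had been seen. RefSeq promoter windows of GRCh38.p14, 250 bases before to 50 bases after the start of a gene, were matched for 45 of the 52 members, and the 250 bases before the start are printed 5′ to 3′ on the strand of the gene. The windows printed are chr11:47578824-47579073 on the plus strand for NDUFS3, chr18:9102449-9102698 on the plus strand for NDUFV2, chr11:67606686-67606935 on the plus strand for NDUFV1, chr19:1383657-1383906 on the plus strand for NDUFS7 and chr12:57240763-57241012 on the minus strand for NDUFA4L2 (COXFA4L2 in RefSeq). Capitals mark matches to 3 of the 5 motifs searched on both strands: ACGTG and GCGTG, both core letters of the hypoxia response element, and CGCATGCG, the core of the site of nuclear respiratory factor NRF1.
NDUFS3: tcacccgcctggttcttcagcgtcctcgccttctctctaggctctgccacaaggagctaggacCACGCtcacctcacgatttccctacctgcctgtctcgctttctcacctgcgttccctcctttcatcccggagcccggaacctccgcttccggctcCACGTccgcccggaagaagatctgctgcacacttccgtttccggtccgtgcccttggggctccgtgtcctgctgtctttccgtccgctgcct
NDUFV2: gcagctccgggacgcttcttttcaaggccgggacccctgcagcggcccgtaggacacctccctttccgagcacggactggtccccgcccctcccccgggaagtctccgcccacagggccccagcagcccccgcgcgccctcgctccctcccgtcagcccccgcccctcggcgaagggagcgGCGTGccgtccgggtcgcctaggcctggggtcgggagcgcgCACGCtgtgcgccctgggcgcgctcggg
NDUFV1: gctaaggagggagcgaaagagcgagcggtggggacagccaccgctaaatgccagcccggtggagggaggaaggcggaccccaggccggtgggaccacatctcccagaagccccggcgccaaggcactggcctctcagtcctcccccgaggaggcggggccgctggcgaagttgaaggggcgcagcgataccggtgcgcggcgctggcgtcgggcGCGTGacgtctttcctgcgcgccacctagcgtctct
NDUFS7: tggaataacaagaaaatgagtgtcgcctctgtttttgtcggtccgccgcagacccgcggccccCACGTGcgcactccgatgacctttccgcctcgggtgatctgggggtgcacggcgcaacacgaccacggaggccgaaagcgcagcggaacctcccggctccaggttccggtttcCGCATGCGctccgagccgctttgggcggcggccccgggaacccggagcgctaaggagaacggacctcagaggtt
NDUFA4L2: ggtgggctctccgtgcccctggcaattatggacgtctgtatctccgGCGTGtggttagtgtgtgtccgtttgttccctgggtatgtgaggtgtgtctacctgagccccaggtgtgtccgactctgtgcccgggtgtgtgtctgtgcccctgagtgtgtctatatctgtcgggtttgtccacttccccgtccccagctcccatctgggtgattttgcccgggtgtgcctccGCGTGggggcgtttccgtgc
ACGTG stood once in NDUFS3 and on both strands of 1 palindrome in NDUFS7, and GCGTG stood at 2 places in NDUFV2 and in NDUFA4L2 and at 1 place in NDUFS3 and in NDUFV1. CGCATGCG stood in NDUFS7 alone among these 5.

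Over the full windows of 300 bases, the shares were set beside those of all 27305 genes with a window. ACGTG was present in 25.6% of the 39 core, accessory and assembly windows and in 21.6% of all windows, and GCGTG in 53.8% and 36.3%. CGCATGCG was present in 5 of the 39 windows, those of NDUFS7, NDUFA8, NDUFB4, NDUFS6 and NDUFAF5, which is 12.8% against 2.19% of all windows. CCGGAAGT, the letters of an ETS site such as that of GABP, were present in 5.13% against 4.44%. AAGATGGCG, the letters of a YY1 site, were present in 12.8% against 1.85%, in the windows of NDUFS7, NDUFA6, NDUFA7, NDUFA9 and NDUFS4. A match describes the letters and is not a binding site, and these genes were named after the matches had been seen.

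The first comparison asked how loss of UBQLN1 at normal O2 changed complex I transcripts. Summed over the 37 core and accessory subunits, the level was 3026 and 3339 CPM in the WT libraries and 2793 and 2895 CPM in the KO libraries. Both KO libraries were lower than both WT libraries, and the group means were 3183 ± 221 CPM and 2844 ± 72.1 CPM (SD, n = 2). No single member passed the threshold: by edgeR's quasi-likelihood test 0 of the 49 members were higher and 0 lower, beside 1.34% and 0.622% of all tested genes. At an unadjusted p under 0.05, 13 members were lower and 0 higher, against 9.50% of all genes higher and 8.12% lower. That count was 4 lower and 1 higher without the first KO library (3.64% and 5.36% of all genes), 5 and 0 without the second WT library (4.57% and 6.49%), and 9 and 2 with a trend on the length and GC content of transcripts removed within each library (8.21% and 7.83%). DESeq2 called 2 members lower, NDUFS4 and NDUFB5, and 1.98% of all genes. The study used a fold rule in DESeq2, a log2 fold change beyond 1 with an unadjusted p under 0.05. With these cut-offs on the edgeR fit, 0 members were higher and 0 lower, beside 1.11% and 1.46% of all tested genes. In DESeq2 the members' counts were also 0 and 0, beside 0.924% and 1.24%.

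The members' values in KO cells leaned below WT by small amounts. The median log2 fold change was -0.15 over the 49 tested members, -0.15 over the core, -0.13 over the accessory subunits and -0.24 over the assembly factors, against -0.0024 over all tested genes. Over the 49 it was -0.09 with the length and GC trend removed, and -0.10 without the second WT library. The median over the core was -0.10 without the second WT library. That over the accessory subunits was -0.06 with the trend removed and -0.19 without the first WT library, and that over the assembly factors -0.16 without the first KO library. The core subunits named here had negative log2 fold changes, from -0.24 for NDUFS3 to -0.09 for NDUFS8, which were -0.13 and -0.04 with the trend removed, when NDUFV2 had -0.02 and NDUFS1 -0.27. Without the first KO library the values of NDUFS7 and NDUFS8 were 0.0028 and 0.0062 and that of NDUFS3 was -0.12, and NDUFS3 had -0.36 without the second. In bulk RNA, fewer cells with these transcripts and less of them per cell cannot be told apart.

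NDUFAF7, a protein methyltransferase, had 33.1 and 32.6 CPM in WT and 25.04 and 24.85 CPM in KO. The KO libraries lay below WT with a log2 fold change of -0.40 ± 0.12 (SE), which missed the threshold (adjusted p = 0.128 by edgeR's quasi-likelihood test, Benjamini-Hochberg adjusted) and passed it when either NAC library was left out of the shared fit (adjusted p = 0.0272 without the first and 0.0254 without the second). With the first or the second NAC library left out, 3 members were called lower, NDUFAF7, NDUFS4 and NDUFB5, beside 2.95% and 2.89% of all genes. NDUFAF2, a chaperone of late assembly, had a log2 fold change of -0.43, NDUFAF1 of -0.31 and NDUFAF6 of -0.30, none of them called. These 3 values were -0.23, -0.21 and -0.19 with the trend removed, and the last 2 were -0.21 and -0.17 without the first WT library. NDUFAF7, NDUFS4 and NDUFB5 had -0.40, -0.35 and -0.34 as counted over all 8 libraries. With the trend removed they had -0.30, -0.15 and -0.31, none of them called. NDUFAF8 had 0.24, which was 0.03 without the second KO library, 0.08 without the first WT library and 0.42 without the first KO or the second WT library. NDUFAF3 had 0.05, which was 0.14 with the trend removed, -0.03 without the first WT library and -0.04 without the second KO library. NDUFAF4 stood at -0.0016 and had 0.16 with the length and GC trend removed. Removing the trend also moved the share of calls that were higher among all genes from 68.3% to 48.4% in this comparison.

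**Figure D2:**
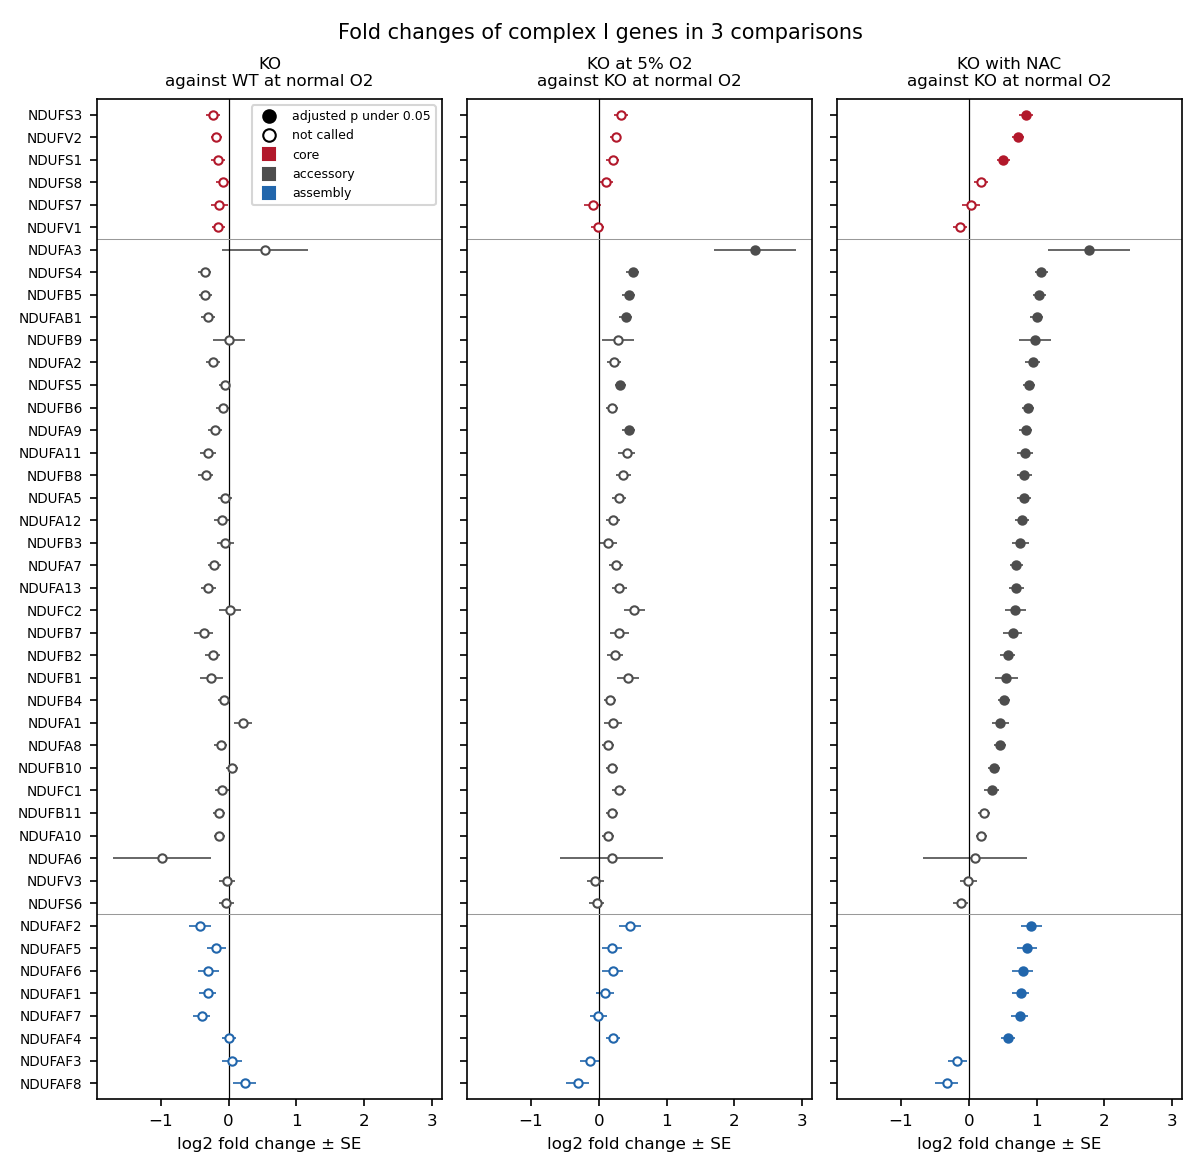
Points are log2 fold changes with SE for core, accessory and assembly genes in 3 comparisons that share the KO libraries at normal O2, filled where edgeR's adjusted p was under 0.05. In KO against WT no point is filled, at 5% O2 6 accessory subunits are filled, and with NAC 3 core, 25 accessory and 6 assembly genes are filled. When the length and GC trend is removed, NDUFAF4, NDUFA1, NDUFB4 and NDUFC1, filled with NAC, turn negative, none of them called.

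The next comparison asked what NAC did to these transcripts in KO cells. The study names DMSO as the control for NAC, whereas the labels give the KO libraries at normal O2 no treatment, and whether these were matched to the NAC libraries in vehicle and passage was not given in the sources used here. The summed level of the 37 subunits was 4264 and 4369 CPM with NAC, against 2793 and 2895 CPM in the KO libraries without it, and both NAC libraries also lay above both WT libraries. The group mean with NAC was 4316 ± 74.2 CPM (SD, n = 2). Of the 49 tested members 35 were called higher and 0 lower by edgeR's quasi-likelihood test, where 23.8% of all tested genes were higher and 20.8% lower. At an unadjusted p under 0.05 the counts were 37 higher and 0 lower, beside 27.2% and 24.1% of all genes, and DESeq2 called 34 higher and 0 lower, beside 22.4% and 22.1%. The median log2 fold change was 0.69 over the members and 0.02 over all tested genes. Without the first NAC library 33 members were called higher and 1, NDUFAF3, was called lower, beside 21.2% and 19.7% of all genes, and the median was 0.64.

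The size of these values moved with base composition. Across 15281 tested genes the log2 fold change with NAC had a Spearman correlation of -0.49 with the GC content of the transcript, and across the 45 core, accessory and assembly genes of -0.40, where genes of the same libraries are not independent replicates. With the length of the transcript the correlations were -0.25 across the tested genes and 0.006 across the 45. The trend removed below was on length and GC content together, and their separate parts were not tested. Transcripts of the 45 genes were short, with a median of 737 bases against 3239 bases, and their median GC content was 48.5% against 49.0%. With a smooth trend on length and GC content removed within each library, 21 members were called higher and 0 lower, beside 15.1% and 10.6% of all genes, and the median was 0.29. Of the 35 members called as counted 18 were still called. A further 4 turned negative and were not called, NDUFA1 (-0.0013), NDUFB4 (-0.11), NDUFC1 (-0.03) and NDUFAF4 (-0.23). Of the 22 genes below the median GC content 20 were called as counted and 8 with the trend removed, and of the 23 at or above it 14 and 13. Whether the trend came from the cells or from the libraries was not tested.

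**Figure D3:**
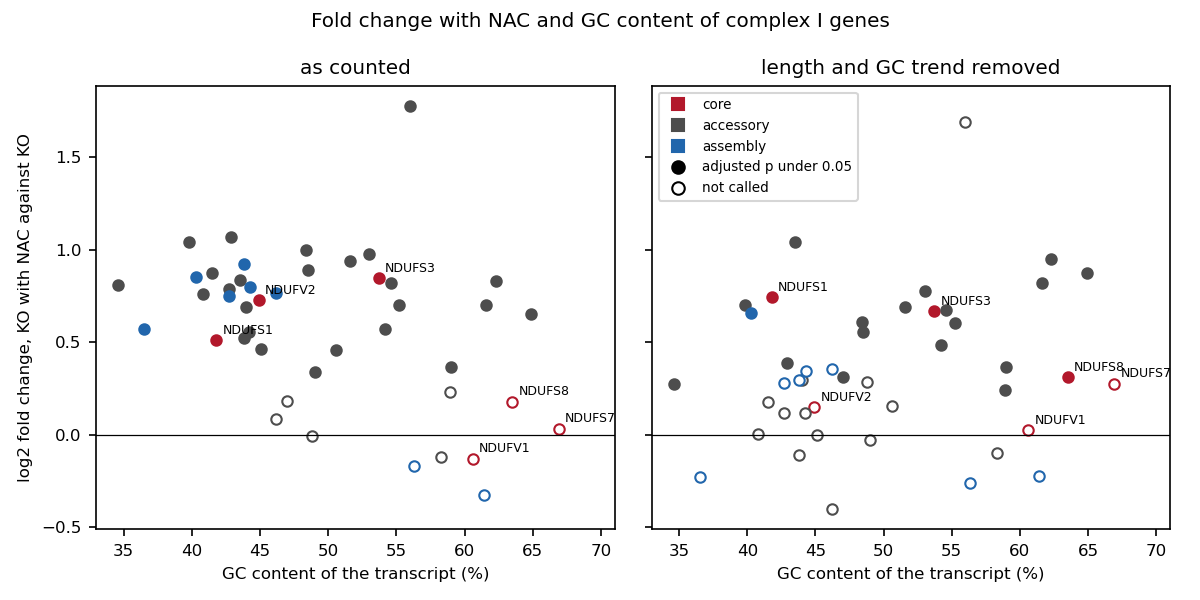
Log2 fold change of KO with NAC against KO at normal O2 on the y axis and GC content of the transcript in percent on the x axis, for core, accessory and assembly genes coloured by role, as counted (left) and with the length and GC trend removed (right). Filled points are called; NDUFV2 loses its call on the right, NDUFS8 gains one, NDUFS3 and NDUFS1 keep theirs, and NDUFV1 crosses 0 without a call in either panel.

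The core subunits divided into a called and an uncalled set with NAC. NDUFS3, a subunit of the quinone-binding module, had 70.2 and 83.1 CPM in KO cells and 131 and 145 CPM with NAC, beside 85.1 and 95.4 CPM in WT. NDUFV2, an iron-sulfur subunit of the NADH-oxidising module, had 84.2 and 86.1 CPM in KO cells and 141 and 141 CPM with NAC. NDUFS1, which carries most of the clusters of that module, had 104 and 92.8 CPM in KO cells and 146 and 133 CPM with NAC. In all 3 genes both NAC libraries were above the KO and the WT libraries. NDUFS3 rose by 0.85 ± 0.11 on the log2 scale (SE, adjusted p = 7.6e-05 by edgeR's quasi-likelihood test, Benjamini-Hochberg adjusted). NDUFV2 rose by 0.73 ± 0.08 and NDUFS1 by 0.51 ± 0.10, and without the first NAC library the 3 values were 0.91, 0.73 and 0.44, all still called.

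NDUFV1, NDUFS7 and NDUFS8 did not pass the test against KO at normal O2. NDUFV1, which binds NADH and the flavin, had 137 and 148 CPM in KO cells and 137 and 123 CPM with NAC, a log2 fold change of -0.13 ± 0.10 that was 0.02 with the trend removed, -0.21 without the first NAC library and -0.06 without the second. NDUFS7, next to the quinone site, had 62.4 and 76.6 CPM in KO cells and 74.6 and 67.5 CPM with NAC, and its libraries overlapped. Its log2 fold change was 0.03 and turned negative without the second WT library (-0.0045), the first KO library (-0.11) or the first NAC library (-0.04), while it was 0.28, not called, with the trend removed. NDUFS8 had a log2 fold change of 0.18, which was 0.08 without the first KO library, 0.28 without the second and 0.09 without the second NAC library. With the trend removed NDUFS8 was called higher at 0.31 and NDUFV2 was no longer called at 0.15, while NDUFS3 at 0.67 and NDUFS1 at 0.74 were called in both. NDUFV2 (GC content 44.9%) and NDUFS1 (41.8%) were the core transcripts of lowest GC content, and NDUFS7 (66.9%), NDUFS8 (63.5%) and NDUFV1 (60.6%) those of highest. The median over the core was 0.18 as counted, 0.28 with the trend removed, 0.28 without the second KO library and 0.26 without the first NAC library, when 3 were called higher, beside 21.2% of all genes.

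Accessory subunits rose with NAC in 25 of 30 cases, with a median log2 fold change of 0.70, in 23 without the first NAC library (median 0.72) and in 17 with the trend removed (median 0.34), beside 23.8%, 21.2% and 15.1% of all genes. NDUFS4, a subunit of the NADH module that is mutated in Leigh syndrome, had 28.8 and 30.5 CPM in KO cells, 62.2 and 62.2 CPM with NAC and 36.9 and 38.7 CPM in WT. NDUFB5, of the membrane arm, had 69.3 and 65.9 CPM in KO cells, 134 and 145 CPM with NAC and 88.1 and 83.4 CPM in WT. NDUFAB1, the mitochondrial acyl carrier protein, had 111 and 119 CPM in KO cells and 233 and 228 CPM with NAC. These 3 genes had NAC libraries above all others, and their log2 fold changes were 1.07 ± 0.10, 1.04 ± 0.09 and 1.00 ± 0.10. With the trend removed they were 0.39, 0.70 and 0.61, all called, so that the value of NDUFS4 depended most on the trend.

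A pair of further accessory subunits had large but uneven values. NDUFB9, a protein of the LYR family in the membrane arm, had 132 and 142 CPM in KO cells and 180 and 358 CPM with NAC. Its log2 fold change was 0.98 ± 0.24, and 0.40 without the second NAC library, where it was still called (adjusted p = 0.0242 by edgeR's quasi-likelihood test, Benjamini-Hochberg adjusted). NDUFA3, of the membrane arm, had 26 and 141 counts in the KO libraries, 322 and 175 with NAC, 304 and 424 at 5% O2, and 21 and 85 in WT. The replicates of WT and of KO differed severalfold, and most of its transcript also stands on alternate loci. Its log2 fold change with NAC was 1.78 ± 0.60 (adjusted p = 0.0315 by the same edgeR test) and it lost its call with DESeq2, in a fit of the 2 groups alone, with the trend removed, and without the first KO library (1.06), either library at 5% O2 (1.78 in both cases) or the first NAC library (1.48). It was 3.33 without the second KO library. NDUFA3, NDUFS4 and NDUFB5 were the 3 members that were higher by the fold rule in edgeR, and 0 were lower, beside 3.63% and 5.39% of all tested genes. In DESeq2 that rule gave 2 higher and 0 lower, beside 2.78% and 5.70%. The 5 accessory subunits not called were NDUFA6, NDUFA10, NDUFB11, NDUFS6 and NDUFV3, with log2 fold changes from -0.12 to 0.23. With the trend removed NDUFA10 and NDUFB11 were called higher, NDUFV3 had 0.29 and NDUFA6 -0.40, not called, and NDUFB11 was also called without the second NAC library.

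Of the 8 assembly factors 6 rose with NAC, with a median log2 fold change of 0.76, and without the first NAC library 6 were called higher and 1 lower, with a median of 0.65. Among all genes 23.8% were called higher as counted, and 21.2% higher and 19.7% lower without that library. NDUFAF1, which binds early membrane intermediates together with ECSIT and ACAD9, had 18.8 and 18.3 CPM in KO cells, 34.1 and 28.9 CPM with NAC and 24.6 and 21.4 CPM in WT. NDUFAF5 had 11.9 and 15.3 CPM in KO cells and 23.9 and 25.3 CPM with NAC, with both WT libraries near 15 CPM (15.6 and 15.2). NDUFAF2 had 15.7 and 13.6 CPM in KO cells and 31.03 and 24.42 CPM with NAC. In each of these the NAC libraries were above the KO and WT libraries. The log2 fold changes of the 6 ran from 0.57 for NDUFAF4, which helps to build the quinone module, to 0.92 for NDUFAF2, with 0.85 for NDUFAF5, 0.80 for NDUFAF6, 0.77 for NDUFAF1 and 0.75 for NDUFAF7. All 6 were called without each of the 8 libraries in turn, but with the length and GC trend removed only NDUFAF5 was called (0.66, adjusted p = 0.00708 by edgeR's quasi-likelihood test, Benjamini-Hochberg adjusted), beside 15.1% of all genes. NDUFAF1, NDUFAF6, NDUFAF2 and NDUFAF7 then had 0.35, 0.34, 0.30 and 0.28, and NDUFAF4 reversed to -0.23. NDUFAF3, the partner of NDUFAF4, and NDUFAF8 were not called, at -0.17 and -0.33. NDUFAF3 had -0.26, not called, with the trend removed, was called lower without the first NAC library (-0.38) and had 0.02 without the second, and NDUFAF8 was called lower without the second NAC library (-0.54) but had -0.14 without the first and -0.12 without the second KO library, not called.

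NDUFA4, of complex IV, had 211 and 222 CPM in KO cells and 312 and 421 CPM with NAC, a log2 fold change of 0.76 ± 0.12 that was called as counted and was 0.06, not called, with the trend removed. It was 0.52 without the second NAC library and 0.95 without the first, called in both. NDUFA4L2 had 12 and 5 counts in the KO libraries and 2 and 8 with NAC. Its log2 fold change of -0.53 ± 0.92 was not called and became positive without the first KO library (0.33) or the first NAC library (0.27), and was -2.01 without the second NAC library.

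The comparison of KO cells at 5% O2 with KO cells at normal O2 asked about low oxygen. The length of the culture under low oxygen is given in more than one way in the sources used here. The summed level of the 37 subunits was 3358 and 3369 CPM at 5% O2, above both KO libraries at normal O2 (2793 and 2895 CPM). The WT libraries had 3026 and 3339 CPM, and the order against the second of them depended on the scaling: with library totals alone, a scaling chosen after seeing the data, the libraries at 5% O2 had 3288 and 3300.3 CPM and the second WT library 3421.5 CPM. By edgeR's quasi-likelihood test 6 members were called higher and 0 lower, where 3.68% of all tested genes were higher and 4.13% lower, and 19 members were higher and 0 lower at an unadjusted p under 0.05, beside 12.4% of all genes in each direction. The second count was 10 higher and 1 lower without the first KO library (7% and 7.73% of all genes), 11 and 0 without the first library at 5% O2 (6.20% and 6.75%), 29 and 1 without the first NAC library (15.4% and 15.5%), 28 and 1 without the second (15.3% each) and 13 and 1 with the trend removed (11.1% and 5.94%). By the fold rule in edgeR 1 member, NDUFA3, was higher and 0 were lower, beside 0.811% and 1.21% of all tested genes. The median log2 fold change was 0.21 over the members, 0.16 over the core, 0.27 over the accessory subunits, 0.14 over the assembly factors and -0.0002 over all tested genes. The median over the assembly factors was 0.07 without the first KO library. With the trend removed the medians were 0.15 over the members, 0.10 over the core, 0.16 over the accessory subunits and -0.08 over the assembly factors, 4 members were called higher, NDUFB5, NDUFA9, NDUFA11 and NDUFS1, beside 1.72% of all genes, and the share of calls that were higher among all genes moved from 47.1% to 83.0%.

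All 6 called members were accessory subunits: NDUFA3 (log2 fold change 2.31), NDUFS4 (0.50), NDUFB5 (0.44), NDUFA9 (0.44), NDUFAB1 (0.40) and NDUFS5 (0.32). The naming rule did not take NDUFS5 in this comparison, and it is named after its value was seen. Of these NDUFS4 (0.19), NDUFAB1 (0.20), NDUFS5 (0.13) and NDUFA3 (2.28) were not called with the trend removed. NDUFS4 had 43.2 and 40.5 CPM at 5% O2 against 28.8 and 30.5 CPM at normal O2 and 36.9 and 38.7 CPM in WT. NDUFB5 had 95.1 and 88.4 CPM at 5% O2 against 69.3 and 65.9 CPM at normal O2. NDUFA9, which binds NADPH where the arms meet, had 109 and 97.5 CPM at 5% O2 against 78 and 74.1 CPM at normal O2. In each the 5% O2 libraries were above both KO libraries at normal O2.

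These 6 calls depended on single libraries. The count of members called higher was 0 without the first KO library, 1 without the second (NDUFA3), 0 without the first library at 5% O2, 3 without the second, 4 without the second WT library and 13 without the first or the second NAC library. In the same order 0.175%, 0.254%, 0.188%, 1.43%, 2.13%, 8.04% and 7.89% of all genes were called higher. Calls over all genes also fell, to 29 higher and 12 lower without the first KO library. DESeq2 called 13 members higher and 0 lower, beside 6.79% and 6.68% of all genes, and NDUFA3 was not among them. A fit of the 2 groups alone called 17 higher, beside 9.53%. The value of NDUFS4 moved less than these counts, and that of NDUFA3 moved widely. NDUFS4 had 0.46 and 0.54 without the first and second KO libraries and 0.45 without the first library at 5% O2, none of them called. NDUFA3 had 1.59 without the first KO library, 3.87 without the second, 2.67 and 1.84 without the first and second libraries at 5% O2, and kept its call in the second of these 4 cases alone. NDUFA9 was called in none of these 4 cases. Among them NDUFB5 and NDUFAB1 were called without the second library at 5% O2 alone, and NDUFAB1 was also not called without the second WT library. NDUFS5 lost its call without either WT library, either KO library at normal O2 or either library at 5% O2. Without either NAC library the calls included the core subunits NDUFV2 and NDUFS3 and the assembly factor NDUFAF2.

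By edgeR's quasi-likelihood test over all 8 libraries as counted, with the filter and no replicate block, core subunits and NDUFA4L2 did not pass at 5% O2. DESeq2 and a fit of the 2 groups alone called NDUFV2, NDUFS3 and the assembly factor NDUFAF2 higher, beside 6.79% and 9.53% of all genes. NDUFS3 was also called with no filter on low counts and with the replicate block, beside 4.91% and 4.25%, and NDUFAF2 with no filter. NDUFS3 had 95.1 and 97.9 CPM at 5% O2 against 70.2 and 83.1 CPM, a log2 fold change of 0.33 ± 0.11 (adjusted p = 0.0773 by edgeR's quasi-likelihood test, Benjamini-Hochberg adjusted, and 0.0297 without the first NAC library), which was 0.21 without the first KO library. NDUFV2 had 0.25, and -0.00074 with the trend removed. NDUFS1 had 0.20, with 0.38 and a call with the trend removed (adjusted p = 0.041 by the same edgeR test), 0.13 without the second KO library and 0.12 without the first library at 5% O2. NDUFS8 had 0.11, with 0.01 without the first KO library and 0.21 without the second. NDUFV1 stood at -0.02 and NDUFS7 at -0.09, which were 0.06 and -0.01 with the trend removed, and both were positive without the second KO library (0.04 and 0.07) and without the first library at 5% O2 (0.07 and 0.04). Among assembly factors, NDUFAF2 had 0.46, which was 0.17 with the trend removed and 0.30 without the first library at 5% O2, NDUFAF4 had 0.21, which was -0.08 with the trend removed, and NDUFAF8 had -0.31, which was -0.10 without the second KO library and -0.49 without the first. NDUFA4L2, known as a target of hypoxia-inducible factor, had 32 and 19 counts at 5% O2, 12 and 5 in KO cells at normal O2 and 4 and 2 in WT. The libraries at 5% O2 were above all others, and the log2 fold change of 1.63 ± 0.80 against KO at normal O2 was not called (adjusted p = 0.236 by the same edgeR test), with 2.47 without the first KO library and 1.08 without the second. NDUFA4L2 passed the filter on low counts only through KO libraries at normal and 5% O2, so nothing is drawn from its higher level at 5% O2. The gene also overlaps SHMT2.

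Set beside WT, KO cells with NAC were above the WT level for most members. Of the 49 members 32 were called higher and 1 lower by edgeR's quasi-likelihood test, where 20.6% of all tested genes were higher and 17.6% lower. By the fold rule in edgeR 1 member, NDUFA3, was higher and 0 were lower, beside 2.50% and 3.70%. Without the first NAC library 2 core, 21 accessory and 3 assembly genes were called higher, beside 18.8% of all genes. Among the core subunits NDUFS3 (0.61), NDUFV2 (0.54) and NDUFS1 (0.35) were higher, and NDUFS1 was not called without the second WT library or the first NAC library (0.28 in both). NDUFV2 was not called with the trend removed (0.13). NDUFV1 was the member called lower, at -0.28 ± 0.10 (adjusted p = 0.0389 by edgeR's quasi-likelihood test, Benjamini-Hochberg adjusted), with 152 and 164 CPM in WT and 137 and 123 CPM with NAC. Its call was lost with the trend removed (-0.11), in a fit of the 2 groups alone, and without either WT library, either KO library or the second NAC library. The accessory subunits gave 22 calls, led by NDUFA3 (2.31), NDUFB9 (0.98), NDUFS5 (0.83), NDUFB6 (0.78) and NDUFA5 (0.76), of which NDUFA3 (1.69) and NDUFB9 (0.78) were not called without the first WT library, and NDUFB9 was 0.40 without the second NAC library. NDUFB6 and NDUFA5 were 0.24 and 0.29 with the trend removed, both still called. The assembly factors gave 6 calls, from 0.36 for NDUFAF7 to 0.67 for NDUFAF5, which was the only 1 of them called with the trend removed, when NDUFAF6 and NDUFAF1 had 0.15 each and NDUFAF2 0.07. In a fit of the 2 groups alone NDUFAF5 and NDUFAF4 were called. NDUFAF7 was not called by DESeq2 or with RLE factors in place of TMM (0.33 in both), and kept its call in no leave-out but that of the second NAC library (0.17 without the first). NDUFAF6 was not called without the second WT library (0.34), NDUFAF1 without the second WT library (0.32) or the first NAC library (0.33), and NDUFAF2 without either WT library (0.42 and 0.54) or the first NAC library (0.31).

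The median log2 fold change of KO with NAC against WT was 0.48 over the members, 0.38 without the first NAC library, when 27 were called higher (18.8% of all genes), and 0.23 with the trend removed, when 20 were called higher and 0 lower (11.8% and 8.03% of all genes). NDUFAF4 and NDUFAF7 then turned to -0.07 and -0.02. Against KO at 5% O2, the NAC libraries gave 27 members called higher and 0 lower, where 15.5% of all tested genes were higher and 13.6% lower. At an unadjusted p under 0.05, 29 were higher and 1 lower, beside 22.0% and 18.6%, and DESeq2 called 26 higher and 0 lower, beside 15.1% and 15.7%. By the fold rule in edgeR 0 members were higher and 1, NDUFA4L2, was lower, beside 1.95% and 2.46% of all tested genes. NDUFA4L2 passed the filter on low counts only through KO libraries at normal and 5% O2, so nothing is drawn from its lower value with NAC. Core calls were NDUFS3 (0.51), NDUFV2 (0.48) and NDUFS1 (0.31), and NDUFS1 was lost with RLE factors, in a fit of the 2 groups alone and in turn without the second WT library, either KO library, either library at 5% O2 or the first NAC library, with values from 0.23 to 0.38. NDUFS3 was not called without the second library at 5% O2 (0.53), nor NDUFV2 with the trend removed (0.15). The assembly factors gave 6 calls of 8, with a median of 0.53 and values of 0.76 for NDUFAF7, 0.67 for NDUFAF1, 0.66 for NDUFAF5, 0.59 for NDUFAF6, 0.46 for NDUFAF2 and 0.36 for NDUFAF4. Of these NDUFAF7 and NDUFAF1 were called without each of the 8 libraries in turn, and 2 assembly factors were called without the second library at 5% O2, 4 without the first and 5 without the first NAC library, beside 3.83%, 9.71% and 13.4% of all genes. With 1 library left out NDUFAF2 was called only without the first library at 5% O2 or the second NAC library (0.62 in both), and it was 0.27 without the first NAC library. Its call was also lost with RLE factors and, like that of NDUFAF4, in a fit of the 2 groups alone. NDUFAF4 was not called without either library at 5% O2 or the second NAC library. Removing the trend left NDUFAF7 (0.46), NDUFAF5 (0.50) and NDUFAF1 (0.42) called, with a median of 0.22 over the 8, 0.32 for NDUFAF6, 0.13 for NDUFAF2 and -0.15 for NDUFAF4. The accessory calls with the largest values were NDUFA2 (0.71), NDUFB9 (0.70) and NDUFB6 (0.68), and NDUFB9 was lost with DESeq2, with RLE factors, in a fit of the 2 groups alone, with the trend removed (0.62) and without either WT library, either KO library, either library at 5% O2 or the second NAC library (0.12), and was 1.11 without the first. NDUFB6 was not called with the trend removed (0.25). The count called higher was 11 without the second library at 5% O2, 25 without the first NAC library and 15 with the trend removed, where 3.83%, 13.4% and 7.86% of all genes were called higher, and the median over the members was 0.35, 0.32 without the first NAC library and 0.19 with the trend removed.

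**Figure D4:**
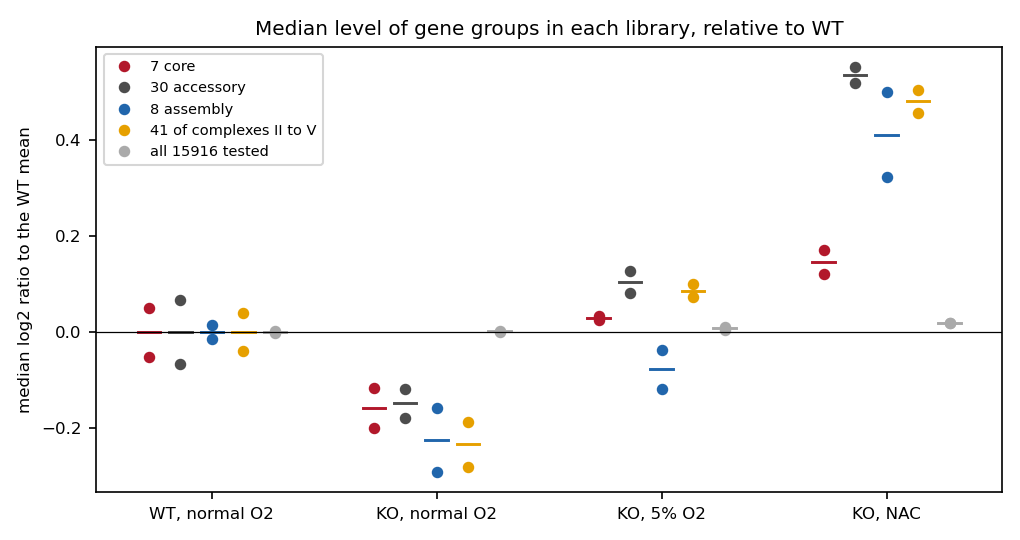
Each point is the median log2 ratio, as counted, of 1 library to the mean of the WT libraries over the genes of a group, and the short lines are the means of 2 libraries. In KO cells the complex I groups and complexes II to V lie below 0, with NAC the 30 accessory subunits lie at 0.52 and 0.55 and the 7 core subunits at 0.12 and 0.17, and the median of all tested genes stays within 0.02 of 0.

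The roles were also read library by library, as counted. The median log2 ratio to the WT mean over the core subunits was -0.20 and -0.12 in the KO libraries, 0.03 and 0.02 at 5% O2 and 0.12 and 0.17 with NAC. Over the accessory subunits it was -0.18 and -0.12, 0.13 and 0.08, and 0.52 and 0.55. Over the assembly factors it was -0.29 and -0.16, -0.04 and -0.12, and 0.50 and 0.32. The median of all tested genes lay between -0.0016 and 0.019 in every library. The spread of the roles with NAC depended on the length and GC trend: the medians against KO at normal O2 were 0.18 over the core, 0.70 over the accessory subunits and 0.76 over the assembly factors as counted, and 0.28, 0.34 and 0.29 with the trend removed. The difference between roles was not tested.

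Other genes of complex I assembly were read from a list of 14. With NAC against KO at normal O2, 9 were called higher and 0 lower, beside 23.8% and 20.8% of all genes, with a median log2 fold change of 0.57. After removal of the trend 5 were called higher, beside 15.1% of all genes, and the median was 0.18. Without the first NAC library 9 were called higher and 0 lower, beside 21.2% and 19.7%, with a median of 0.49. TMEM126B, a partner of NDUFAF1, had 35.2 and 34.5 CPM in KO cells and 52.7 and 73.7 CPM with NAC, and its log2 fold change of 0.86 turned to -0.19 with the trend removed. COA1 (0.76) and TMEM70 (0.80), both factors of membrane-arm assembly, and LYRM2 (0.82) and FOXRED1 (0.56) were called in both, with 0.27, 0.33, 0.54 and 0.66 once the trend was removed. DMAC1 (0.82), CHCHD4 (0.73), TIMMDC1 (0.58) and NUBPL (0.56), the last of which delivers iron-sulfur clusters, were called as counted only, with 0.19, 0.40, 0.18 and 0.14 once the trend was removed. NUBPL was not called without the second KO library (0.43), and CHCHD4 was 0.41 without the first NAC library. ECSIT, ACAD9, TMEM186, DMAC2 and AIFM1 were not called as counted, and ECSIT, named after its value was seen, was called higher with the trend removed (0.35 against 0.14 as counted). In KO against WT and at 5% O2 against normal O2, 0 of the 14 were called by edgeR, with 3 lower in the first and 5 higher in the second at an unadjusted p under 0.05, beside 8.12% of all genes lower and 12.4% higher. Without either NAC library 4 were called higher at 5% O2, beside 8.04% and 7.89% of all genes.

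The same comparisons were read for neighbouring groups of genes, to place complex I among them. With NAC against KO at normal O2, 37 of 41 subunits of complexes II to V were called higher and 0 lower, with a median log2 fold change of 0.68, as were 61 of 77 mitochondrial ribosomal proteins (median 0.55) and 67 of 76 cytosolic ribosomal proteins (median 0.65), beside 23.8% of all genes higher and 20.8% lower. With the trend removed the counts higher were 23, 38 and 48, the counts lower 0, 2 and 2, and the medians 0.35, 0.27 and 0.39, beside 15.1% and 10.6% of all genes. Without the first NAC library the counts higher were 37, 57 and 64, the counts lower 0, and the medians 0.67, 0.55 and 0.64, beside 21.2% and 19.7%. In KO against WT the medians were -0.22, -0.15 and -0.21, with 0, 1 and 1 genes called lower and 0 called higher, beside 0.622% and 1.34% of all genes. Those medians were -0.12, -0.07 and -0.12 with the trend removed, that of the mitochondrial ribosomal proteins was -0.09 without the second WT library and that of the cytosolic ones -0.14 without the first KO library. The counts lower were 8, 3 and 13 without the first NAC library and 8, 3 and 14 without the second, beside 2.95% and 2.89% of all genes, and 1, 0 and 0 with the trend removed, beside 0.622%. No ribosomal gene was called lower without the second WT library, either KO library or either library at 5% O2, no mitochondrial one without the first WT library, and 1 cytosolic one was called higher without the second WT library or the first KO library. At 5% O2 against normal O2 the medians were 0.32, 0.22 and 0.32, with 14, 6 and 35 genes called higher and 0 lower, beside 3.68% and 4.13% of all genes. With the trend removed those medians were 0.14, 0.10 and 0.20, with 3, 1 and 6 genes called higher and 1 cytosolic ribosomal gene lower, beside 1.72% and 0.352% of all genes. As counted, 0 genes of these groups were called higher without the first KO library, the second KO library or the first library at 5% O2, where 0.175%, 0.254% and 0.188% of all genes were. Without the second library at 5% O2 2, 1 and 13 were called higher, beside 1.43% of all genes. The counts were 28, 19 and 56 without the first or the second NAC library, beside 8.04% and 7.89%, and for the complexes 9 and the mitochondrial ribosomal proteins 1 without the second WT library (2.13% of all genes), with 2 of the latter without the first (2.39%). Whether complex I differed from these groups was not tested.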

How the data were processed

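RNA-seq libraries of 8 of the 12 samples in the labels were analysed, those with a column in the table. The authors deposited a table of raw counts per gene; their processing notes name FastQC 0.11.9, HISAT2, featureCounts and hg38, and the annotation was not given in the sources used here. Counts were fitted in R 4.3.3 with edgeR 4.0.16 (TMM factors, filterByExpr with a minimum count of 10, a quasi-likelihood test with 1 term per group over all 8 libraries), with Benjamini-Hochberg adjustment over 15916 tested genes and a threshold of 0.05. The biological coefficient of variation was 13.7% and 4 residual degrees of freedom remained. CPM were computed from the counts and the library sizes scaled by the TMM factors, and lengths and GC content came from GENCODE v44 canonical transcripts.

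Genes named were UBQLN1, core subunits, the NDUFAF genes, NDUFA4 and NDUFA4L2, the 5 members with the largest called change in each direction of each comparison, and other assembly genes that passed. Others were named after their values were seen. A member kept in the counts, sums and medians is not reported here by itself or drawn in plots of single genes. Members and lists were chosen with earlier results of these data known. Alternatives were DESeq2 1.42.0, RLE factors, other filters, the fold rule of the study in edgeR and, chosen after seeing the data, in DESeq2, a replicate block, fits of 2 groups, each library left out in turn, removal of a trend on length and GC content fitted with mgcv 1.9.3 and, also chosen after seeing the data, library totals alone for summed levels and leaving out genes with 10% or more of their 31-base words on alternate loci. The test was also tried on simulated data, and no statement here rests on that trial.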

Additional observations from a re-analysis of the deposited data

How the results depend on the processing

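Gene values were compared over 117 pairs of gene and comparison. Under the alternatives, 1543 values kept their direction and side of the threshold, 152 lost a call, 24 gained one and 31 changed sign, 25 of them not called in either case. With 1 library left out, the lone library of its group was assumed to vary like the other groups. In KO against WT, members called lower were 2 by DESeq2, 7 with no filter on low counts and 2 with only the 2 groups fitted, where 1.98%, 2.22% and 2.49% of all genes were. In 5% O2 against normal O2, members called higher were 13 by DESeq2, 13 with no filter and 17 with only the 2 groups, where 6.79%, 4.91% and 9.53% of all genes were, and 1 by the fold rule. With NAC against KO, 21 were higher with the length and GC trend removed and 3 by the fold rule, beside 15.1% and 3.63% of all genes. With no filter 1 was lower, beside 16.7%. With NAC against WT, 20 were higher with the trend removed and 1 by the fold rule, beside 11.8% and 2.50% of all genes. With only the 2 groups, with the trend removed or by the fold rule 0 were lower, beside 13.0%, 8.03% and 3.70%. At an unadjusted p under 0.05 in edgeR 1 was lower, and DESeq2 called 1 lower, beside 21.9% and 19.3%. With NAC against 5% O2, 15 were higher with the trend removed and 0 by the fold rule, beside 7.86% and 1.95% of all genes. By that rule 1, NDUFA4L2, was lower, beside 2.46%. The fold rule used the cut-offs of the study on the edgeR fit; on the DESeq2 fit, added after seeing the data, it gave 2 higher with NAC against KO and the same counts in the other comparisons. The cause was not tested.

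Medians with the trend removed were -0.094 (KO against WT), 0.29 (NAC against KO), 0.15 (5% O2 against normal O2), 0.23 (NAC against WT) and 0.19 (NAC against 5% O2). Keeping instead genes with at least 10 counts in every library, with no trend removed, gave 0.39 for NAC against 5% O2. Over all 49 tested members, removing the trend changed the sign of 10 values in KO against WT, 7 in NAC against KO, 13 in 5% O2 against normal O2, 6 in NAC against WT and 5 in NAC against 5% O2. The naming rule was applied in each comparison by itself, and a gene it took in another comparison alone is not listed here. Among the genes it took in the same comparison, signs changed in KO against WT for NDUFAF4 (0.16). In NAC against KO they changed for NDUFV1 (0.023), NDUFAF4 (-0.23) and TMEM126B (-0.19). In 5% O2 against normal O2 they changed for NDUFA4 (-0.067), NDUFV1 (0.059), NDUFAF4 (-0.083), NDUFAF1 (-0.070) and NDUFV2 (-0.00074). Among the genes of that rule that were called as counted, they also changed in NAC against WT for NDUFAF7 (-0.019), NDUFAF4 (-0.067) and DMAC1 (-0.052), and in NAC against 5% O2 for NDUFAF4 (-0.15). The cause was not tested.

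With each library left out in turn, members called higher ranged from 0 to 13 at 5% O2 against normal O2 and from 11 to 27 with NAC against 5% O2, and members called lower from 0 to 3 in KO against WT and from 0 to 1 in each comparison with NAC. The share of all tested genes called higher at 5% O2 was likewise smallest where 0 members were called and largest where 13 were. With NAC against 5% O2 that share was also smallest where 11 members were called. In KO against WT the share called lower was largest where 3 were. These ranges were therefore not particular to the members. Medians ranged from -0.20 to -0.10 (KO against WT), 0.62 to 0.72 (NAC against KO), 0.20 to 0.25 (5% O2 against normal O2), 0.38 to 0.51 (NAC against WT) and 0.32 to 0.42 (NAC against 5% O2). Signs changed in KO against WT for NDUFAF3 (-0.038 to 0.14), NDUFS8 (-0.19 to 0.0062), NDUFAF4 (-0.0382 to 0.0381) and NDUFS7 (-0.29 to 0.0028), in NAC against KO for NDUFAF3 (-0.38 to 0.015), NDUFS7 (-0.11 to 0.19) and NDUFA4L2 (-2.01 to 0.33), and in 5% O2 against normal O2 for NDUFAF7 (-0.061 to 0.049), NDUFV1 (-0.10 to 0.066) and NDUFS7 (-0.23 to 0.066).

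Replicate numbers did not pair the libraries: correlations of replicate differences between groups ran from -0.02 to 0.08. With the replicate block, 35 members were called higher with NAC against KO (median 0.68) and 8 at 5% O2 against normal O2, beside 23.9% and 4.25% of all genes. The median SE of the members' log2 fold changes was 0.11 in each comparison, and the smallest change called was 0.28 in size, for NDUFV1.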
